A study of Homo sapiens with 4 samples.

Results

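Cytosolic ribosomal protein genes were read one by one in SUM159 cells, an established line of triple-negative breast cancer. Members were the protein-coding genes whose symbol was RPL or RPS with a number and an optional A, X, L or L1 suffix, plus RPLP0, RPLP1, RPLP2 and RPSA. RPL36AL, whose suffix joins 2 of these, was kept as a paralog. The rule found 85 genes among the 60279 genes listed, of which 77 were core members (46 of the large subunit and 31 of the small subunit) and 8 were paralogs with an L or L1 suffix. The cells were untreated, given palbociclib (an inhibitor of the cell cycle kinases CDK4 and CDK6), given indisulam (a sulfonamide that brings the splicing factor RBM39 to a ubiquitin ligase, after which RBM39 is degraded), or given both drugs. Each condition had 1 library, so no difference below has a replicate check and no p-value was computed. The sample labels gave 0.5 µM palbociclib and 2 µM indisulam for 10 days, whereas the text on the series gave 2 µM and 3 µM for 16 h in technical duplicates, so dose and duration are not settled. The labels name no genetic change in any group, and all 4 libraries came from this 1 line.

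A cytosolic ribosome is built from ribosomal RNA and a set of proteins that enter it in equal numbers, most of them 1 copy per ribosome. The large subunit joins amino acids and holds the tunnel through which the new protein leaves, and the small subunit reads the message. Most ribosomal protein messages start with a stretch of pyrimidines, the terminal oligopyrimidine (TOP) tract, through which growth signalling by mTOR controls their translation, and the genes are among the most highly expressed in dividing cells. A few have paralogs that can take the place of the core protein in particular tissues or tumours.

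Start sites of the members whose values stand at the ends of the range are shown first, since the pyrimidine tract is a feature that the member rule did not use. The 30 bases around the start, 15 before it and 15 from it onwards, were taken from RefSeq on GRCh38.p14. It held 35116 entries for 27305 genes, so some genes had several starts. For each gene the start with a C and the longest run was chosen, which favours a run. Capitals mark the unbroken run of C and T that begins with a C at the start site. A line without capitals has no such run at any start that RefSeq gives for the gene. For such a gene the start with the longest run of C and T was shown. The starts used in these cells were not measured, so a line without capitals does not show that the message lacks a tract. The first 5 lines are members with low values in the combination library, the next 2 are members with little difference between libraries, and the last 3 are RPL22L1 and the pair of RPS27 and its paralog.
RPL3, chr22:39319609-39319638, minus strand: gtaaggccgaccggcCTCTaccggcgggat
RPLP0, chr12:120201097-120201126, minus strand: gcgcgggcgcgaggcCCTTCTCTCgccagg
RPS29, chr14:49598696-49598725, minus strand: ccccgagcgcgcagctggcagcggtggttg
RPL10, chrX:154398362-154398391, plus strand: caggcggaggagcgcCTCTTTCCCTTCggt
RPL12, chr9:127451392-127451421, minus strand: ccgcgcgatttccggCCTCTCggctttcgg
RPL6, chr12:112411428-112411457, minus strand: tatttgtatcctcagtgaatcagaaccaga
RPL22, chr1:6199581-6199610, minus strand: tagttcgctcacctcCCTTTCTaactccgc
RPL22L1, chr3:170870181-170870210, minus strand: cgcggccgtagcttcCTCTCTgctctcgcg
RPS27, chr1:153990747-153990776, plus strand: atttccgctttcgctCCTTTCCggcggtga
RPS27L, chr15:63157463-63157492, minus strand: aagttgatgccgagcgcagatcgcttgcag

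Of the 77 core members, 62 had an entry. At 1 or more of their starts, 46 of these (74.2%) had a run of 5 or more pyrimidines from a C. Among the 27305 genes of the RefSeq table the share was 5.14%, and among the 6 paralogs with an entry it was 1, RPL22L1. The hexamer CGGAAG, the core of an ETS factor motif, was read on both strands of the 250 bases before each start. It was found for 1 or more starts of 61.3% of the core members and 19.4% of all genes in the table. TATAAA was found for 8.06% against 13%, and AAGATGG for 1.61% against 4.49%. These are matches of letters and not sites shown to be bound. RPS2 and 14 other core members had no entry.

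The libraries held 12555908 to 16712174 reads in genes, and 3 reads, the smallest count taken as detected, corresponded to 0.180 to 0.239 CPM (counts per 1000000, the reads of a gene relative to all reads in genes of its library). The reads carry no molecular identifiers and are not separate molecules, so intervals and floors here cover counting error only. Mitochondrially encoded genes took 4.90% to 7.33% of the counts. The labelled cell type was checked by its markers. ESR1 had 4 to 16 reads and PGR 0 to 3, EPCAM had 5 to 16 and CDH1 10 to 28, whereas VIM had 36565 to 57726 and CD44 9628 to 12680. ERBB2 had 1628 to 1831 reads. Of markers of other cell types, ALB had 0 to 1 reads, PTPRC 153 to 292 and PECAM1 191 to 519. In bulk RNA, fewer cells of a type and less RNA per cell cannot be told apart, and a value relative to the library total does not give RNA per cell.

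Core members together took a smaller share of the combination library than of any other. Their share of gene counts was 6.62% in the untreated library (exact binomial 95% interval 6.60 to 6.63), 6.43% with palbociclib (6.42 to 6.45), 6.52% with indisulam (6.5 to 6.53) and 5.06% with the combination (5.05 to 5.08). The combination share was 0.765 of the untreated share. Both subunits showed it: the large subunit took 4.0%, 3.94%, 3.86% and 3.02% in the same order of libraries, and the small subunit took 2.62%, 2.49%, 2.66% and 2.04%. The mitochondrial share was 5.93% untreated and 6.55% with the combination, and without mitochondrially encoded genes the core shares of these libraries were 7.03% and 5.42%.

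Levels ranged over more than 100-fold among the core members of every library. RPS4X, a small-subunit protein encoded on the X chromosome, had the highest level, at 2817 CPM untreated, 3149 with palbociclib, 2499 with indisulam and 2259 with the combination. RPL13A, a large-subunit protein, was at 1834, 2144, 2126 and 1626 CPM in the same order. Per kilobase of the reference transcript, RPS18 was highest in the untreated library at 3329 CPM per kb, followed by RPL39 at 2894 CPM per kb. These values depend on the transcript chosen as reference, which has 390 bases for RPL39 and 7573 for RPL37. They therefore give no firm order of the genes.

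At the other end, 3 core members were far below the rest, and all 3 share exons with a read-through gene. RPL17 was at 9.96, 9.77, 11.1 and 10.2 CPM in the untreated, palbociclib, indisulam and combination libraries, RPL36A at 15.1, 16.0, 17.1 and 10.9 CPM, and RPS10 at 21.2, 24.3, 23.3 and 23.5 CPM. In GENCODE release 44 the share of exonic bases covered by another gene on the same strand was 96.9% for RPL17 (with RPL17-C18orf32), 84.0% for RPS10 (with RPS10-NUDT3) and 43.8% for RPL36A (with RPL36A-HNRNPH2). Each of those read-through genes was listed at 0 in all 4 libraries. A read that falls in 2 genes is set aside as ambiguous in such counts, so the values of these members are uncertain, as are those of RPL26 (65.3% overlap).

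**Figure D1:**
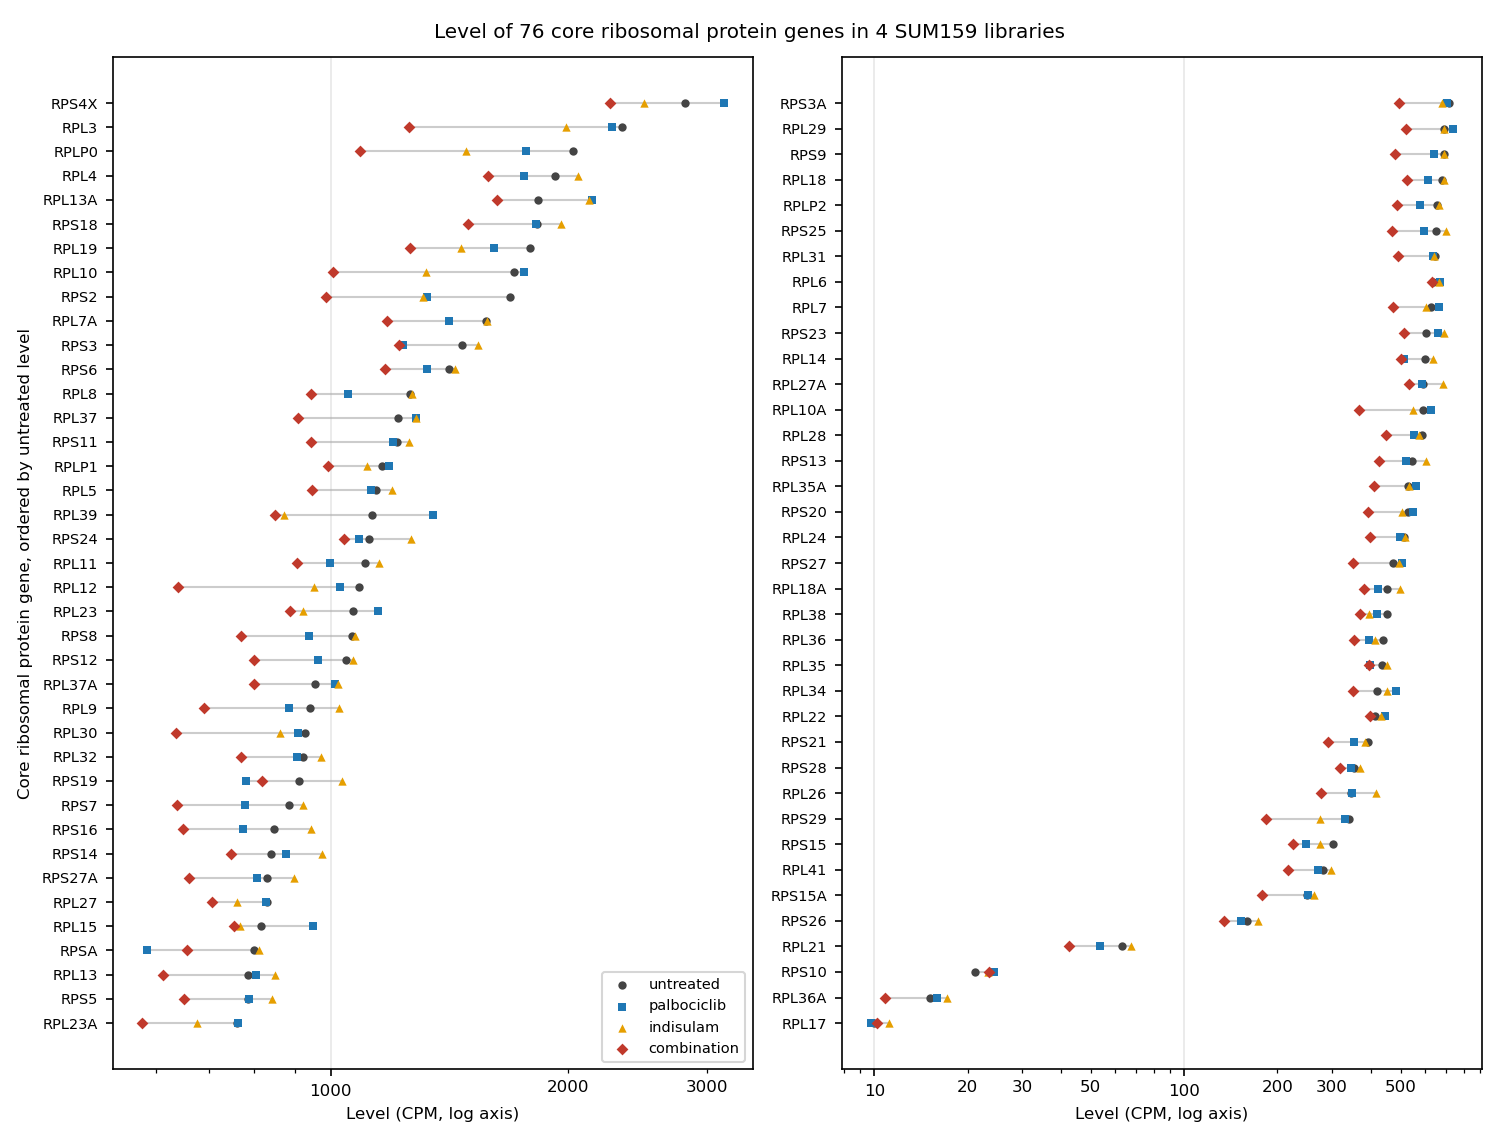
Level in CPM of 76 core members on a log axis, ordered by the untreated level, with 1 point per library. The combination point lies furthest to the left for 72 of the 76 genes shown, and RPS10, RPL36A and RPL17 lie at the bottom near 10 to 25 CPM.

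A ratio below is the log2 ratio of counts scaled to the same library total with a pseudocount of 1 scaled count, and the range after it is its 95% Poisson interval. A member was called higher or lower when the log2 ratio reached 0.32 in size and the interval excluded 0. All 77 core members and 6 of the 8 paralogs passed the filter of a mean of 1 CPM, as did 14269 genes in all, and 73 core members were at 100 CPM or more. Counting error is small at these levels, so 2001 genes at 100 CPM or more were used as a second background. Over those genes the robust spread of the departure from additivity was 0.40 (log2), which would cap the SD of 1 ratio at about 0.28 if the error were alike and independent in the 4 libraries.

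Core members were mostly lower with the combination than untreated. The median log2 ratio over the 77 core members was -0.36 (SD over genes 0.20, from -0.90 to 0.15), beside 0.05 over all genes tested and -0.02 over those at 100 CPM or more. Called lower were 43 core members and none was called higher, while 28.2% of all genes tested were called lower and 33.1% higher. At 100 CPM or more the lower share was 28.9%. A ratio below 0 was found for 75 of the 77, beside 47.1% of all genes tested and 51.3% of those at 100 CPM or more. Of the 77, 51 differed from 0 by more than 0.28. The share of all genes past 0.28 was not counted. The quartiles at 100 CPM or more were -0.38 and 0.40, so a difference of this size was not particular to core members. Past 1.5-fold, 7 core members were lower, with a background of 19.5%, and past 2-fold there was none. The threshold fell in the middle of the members, with RPS27A just inside it at -0.33 and RPS4X just outside it at -0.32. The members share the 4 libraries and are not independent of each other, so their number does not stand in for replicates.

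RPL3, a protein of the large-subunit core that reaches towards the peptidyl transferase centre (ENSG00000100316, 22:39312882-39320389), had the lowest combination to untreated ratio. It was at 2342 CPM untreated, 2271 with palbociclib, 1988 with indisulam and 1256 with the combination. The combination library stood apart from the other 3, with a log2 ratio to untreated of -0.90 (-0.93 to -0.87), which is 0.536 of the untreated level. The palbociclib ratio was -0.04 (-0.07 to -0.02) and the indisulam ratio -0.24 (-0.26 to -0.21), neither of which reached 0.32 in size.

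RPLP0, the base of the stalk that binds elongation factors (ENSG00000089157, 12:120196699-120201235), was at 2031, 1767, 1483 and 1089 CPM in the untreated, palbociclib, indisulam and combination libraries. Each treated library was below untreated, with log2 ratios to untreated of -0.20 (-0.23 to -0.17), -0.45 (-0.48 to -0.43) and -0.90 (-0.93 to -0.87). RPL12, which sits beside RPLP0 at the stalk base, was at 1086, 1026, 952 and 640 CPM, and its combination ratio was -0.76 (-0.80 to -0.72). Its single-drug libraries were much closer to untreated than its combination library.

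RPS29, a small zinc-binding protein of the small-subunit head (ENSG00000213741, 14:49570984-49599164), was at 340 CPM untreated, 332 with palbociclib, 274 with indisulam and 183 with the combination. Its highest level was 1.86 times its lowest, close to that of RPL3 and RPLP0, and its combination ratio was -0.89 (-0.96 to -0.82). RPS2, a small-subunit protein at the path of the incoming message (ENSG00000140988, 16:1962058-1964841), was at 1688, 1323, 1308 and 985 CPM. It was the only core member called lower in all 3 treated libraries against untreated, with log2 ratios of -0.35 (-0.38 to -0.32), -0.37 (-0.40 to -0.34) and -0.78 (-0.81 to -0.75).

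The other 3 members past 1.5-fold were RPL10, RPL12 and RPL10A. RPL10, among the last proteins to join the large subunit, was at 1709, 1758, 1322 and 1006 CPM, with a combination ratio of -0.76 (-0.79 to -0.73). Opposite-strand genes cover 53.7% of its exonic bases, and whether strand was used in counting is not given in the sources used here. RPL10A, the protein of the L1 stalk where spent tRNA leaves, was at 590, 627, 548 and 365 CPM, with a ratio of -0.69 (-0.74 to -0.64). Only its combination library was past the threshold of 0.32 against untreated.

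The 4 members with the highest combination to untreated ratio had values close together in the 4 libraries. RPS10, a protein of the small-subunit head, had the highest ratio at 0.15 (-0.08 to 0.38), and it was the only core member above untreated in all 3 treated libraries. RPL17, at the exit tunnel, had 0.04 (-0.30 to 0.38). Both rest on few reads and on exons shared with read-through genes, and neither interval excludes a ratio of 1.

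RPL6, of the large subunit, is well counted by contrast, at 635, 671, 665 and 632 CPM with a ratio of -0.01 (-0.05 to 0.04). Its highest to lowest level of 1.06 was the smallest of all core members. RPL22, at the rim of the tunnel, was at 414, 445, 433 and 399 CPM with a ratio of -0.05 (-0.11 to 0.00). In all, 12 core members stayed within 0.32 on the log2 scale across the 4 libraries and 11 spanned more than 1.5-fold, with a median highest to lowest level of 1.34. These values were not computed for all genes, so they have no background here.

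**Figure D2:**
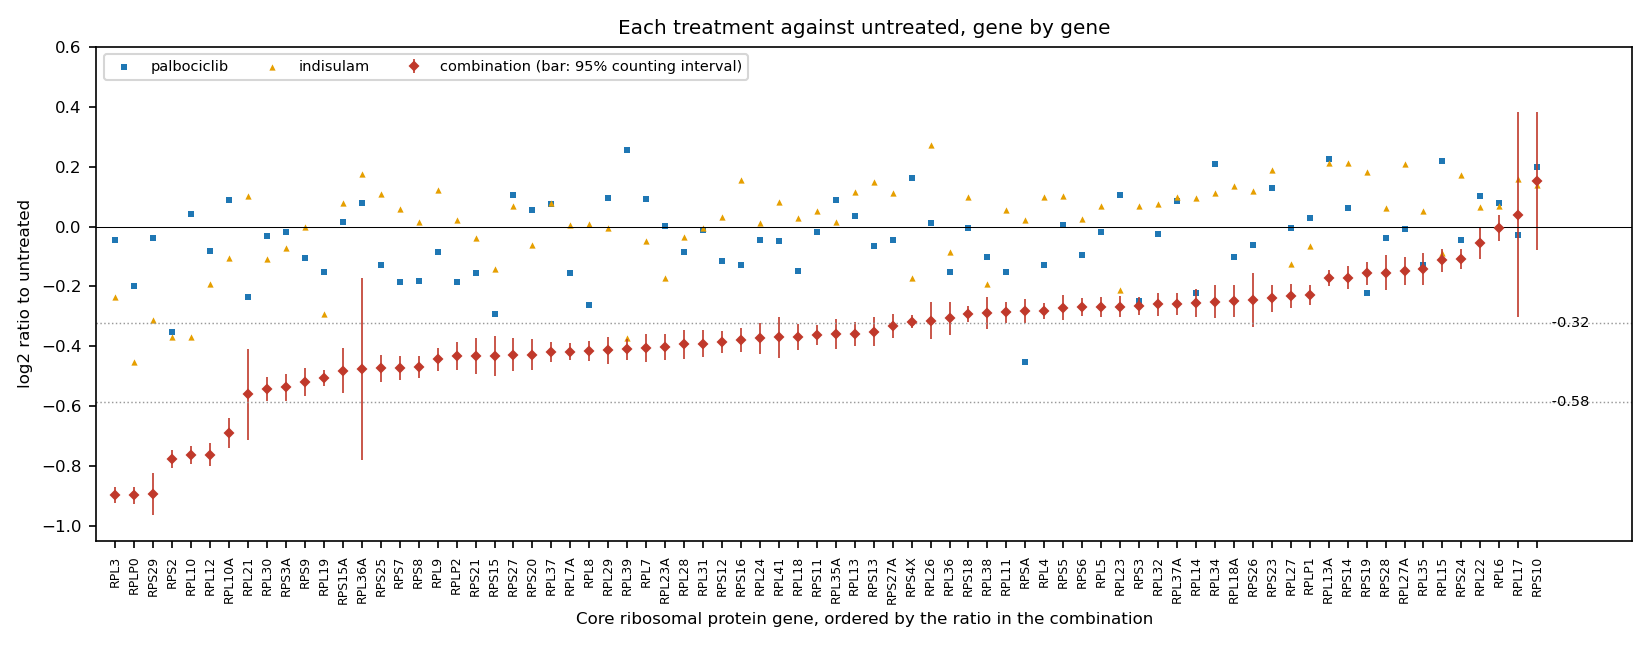
The same 76 core members ranked by the log2 ratio of the combination to untreated, with 95% Poisson intervals as vertical bars, the single-drug ratios as smaller points, and dotted lines at the threshold of -0.32 and at 1.5-fold lower. RPL3, RPLP0, RPS29 and RPS2 lie at the low end, and the intervals of RPS10 and RPL17 at the high end are wide and include 0.

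The 4 libraries were then ordered by level for each core member. The combination library was the lowest of the 4 for 73 of the 77 core members, beside 26.1% of all genes tested and 28.8% of those at 100 CPM or more, and it was the highest for none. The exceptions were RPS10, lowest in the untreated library, and RPSA, RPS19 and RPL17, lowest with palbociclib. Under scaling by library total, the highest library was indisulam for 42 core members, palbociclib for 18 and untreated for 17. The order indisulam, untreated, palbociclib, combination was the most frequent, at 30 members. For 25 core members the combination was below each other library by 0.32 or more on the log2 scale. The counts of highest libraries, of orders and of this rule were made for core members only. They have no share over all genes beside them and are not read as a trait of the family. Neighbours in these orders often differed by less than 0.28 on the log2 scale, so the order of the other 3 libraries is a description only.

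Palbociclib alone left the core members near their untreated level. The median log2 ratio was -0.04 (SD 0.14, from -0.45 to 0.26) beside -0.02 over all genes tested. Called lower were 2 core members, where the background was 22.4%, and none was called higher, where it was 21.3%. At 100 CPM or more the lower share was 22.9%. Within single genes, RPSA, a small-subunit protein also known as the laminin receptor, was at 799 CPM untreated and 585 with palbociclib, a ratio of -0.45 (-0.49 to -0.41). With indisulam RPSA was at 812 CPM and with the combination at 657, so that its 2 palbociclib libraries were the lower ones.

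RPS15, of the small-subunit head, had the third lowest palbociclib ratio after RPS2, at -0.29 (-0.36 to -0.22), with 303, 247, 275 and 225 CPM in the 4 libraries. The highest ratios did not reach 0.32. RPL39, a very small protein that lines the exit tunnel, had 0.26 (0.22 to 0.29), RPL13A had 0.23 (0.20 to 0.25) and RPL15 had 0.22 (0.18 to 0.26). RPL15, a large-subunit protein mutated in some cases of Diamond-Blackfan anaemia, was at 817, 951, 768 and 755 CPM, highest with palbociclib.

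Indisulam alone gave a core median of 0.05 (SD 0.15, from -0.45 to 0.27) beside 0.06 over all genes tested, and this sign turned under 3 other scalings, to -0.022 with TMM factors, -0.020 with upper-quartile factors and -0.015 with DESeq2 size factors. Called lower were 4 core members with a background of 22.5% (21.7% at 100 CPM or more), and called higher were none with a background of 28.3%. Those 4 were RPLP0, RPL39, RPL10 and RPS2. RPL39 was at 1128, 1348, 872 and 849 CPM, with an indisulam ratio of -0.37 (-0.40 to -0.34), so that the 2 libraries with indisulam were below the 2 without it. RPL10 had the same indisulam ratio, -0.37 (-0.40 to -0.34), and likewise had its 2 lowest levels in the libraries with indisulam.

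Of the highest indisulam ratios, RPL26, at the tunnel rim, had 0.27 (0.22 to 0.33), with 345, 347, 417 and 277 CPM. RPL13A had 0.21 (0.19 to 0.24). RPS14, a small-subunit body protein known from the 5q- syndrome, also had 0.21 (0.18 to 0.25), with 840, 878, 974 and 747 CPM. All 3 were above untreated with indisulam and below it with the combination.

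**Figure D3:**
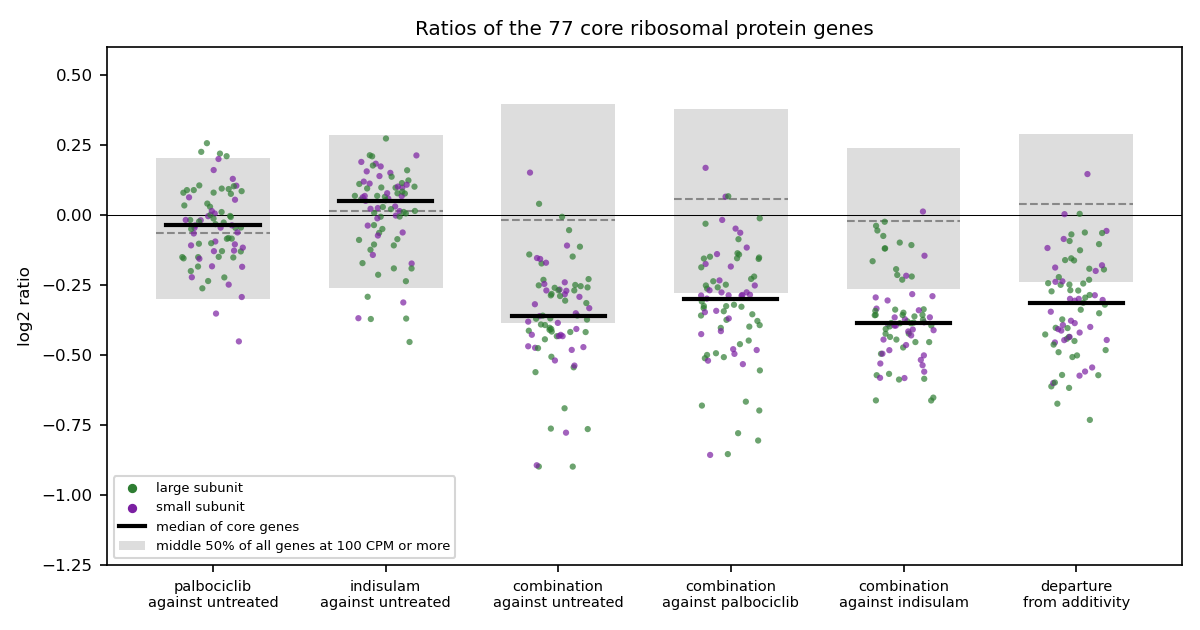
Log2 ratios of the 77 core members in 5 comparisons and their departure from additivity, with 1 point per gene, the core median as a black line and the middle 50% of all genes at 100 CPM or more as a grey box. The medians of the single drugs against untreated lie at -0.04 and 0.05, and those that involve the combination lie between -0.39 and -0.30.

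Adding indisulam to palbociclib went with lower core levels. The combination against palbociclib had a median of -0.30 (SD 0.21, from -0.86 to 0.17), beside 0.07 over all genes tested. Called lower were 36 core members where the background was 22.5%, also at 100 CPM or more, none was called higher where it was 29.3%, and 7 were past 1.5-fold where it was 14.5%. RPS29 had -0.86 (-0.93 to -0.79), RPL3 -0.85 (-0.88 to -0.83) and RPL10 -0.81 (-0.84 to -0.78). At the high end RPSA had 0.17 (0.12 to 0.21), RPL17 0.07 (-0.28 to 0.41) and RPS19 0.07 (0.03 to 0.10). RPS19, the head protein most often mutated in Diamond-Blackfan anaemia, was at 911, 781, 1035 and 817 CPM, so both libraries with palbociclib were below both without it.

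Adding palbociclib to indisulam gave 57 core members called lower and none higher, beside backgrounds of 21% and 21%, and 20.3% lower at 100 CPM or more. Past 1.5-fold were 4, where the background was 10.3%. The median was -0.39 (SD 0.16, from -0.66 to 0.01) and that over all genes tested was -0.01. RPL3 had -0.66 (-0.69 to -0.64), a well-counted value. RPL21, of the large subunit, had -0.66 (-0.80 to -0.52) at 62.9, 53.4, 67.5 and 42.6 CPM. RPL36A had -0.65 (-0.93 to -0.37), a wide interval from 156 reads in the combination library. RPS10 with 0.01 (-0.20 to 0.22), RPL15 with -0.02 (-0.06 to 0.01) and RPL39 with -0.04 (-0.07 to -0.00) had the highest ratios.

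The 2 estimates of each drug, without and with the other, share no library. For palbociclib, the ratio to untreated and the ratio of the combination to indisulam were related across the 77 core members with Pearson's r of 0.26 and Spearman's rho of 0.18. For indisulam the values were 0.55 and 0.41. These describe points that are genes of 1 family in the same 4 libraries and carry no test. Length of the reference transcript and mean level gave coefficients between -0.29 and 0.27 with every ratio.

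**Figure D4:**
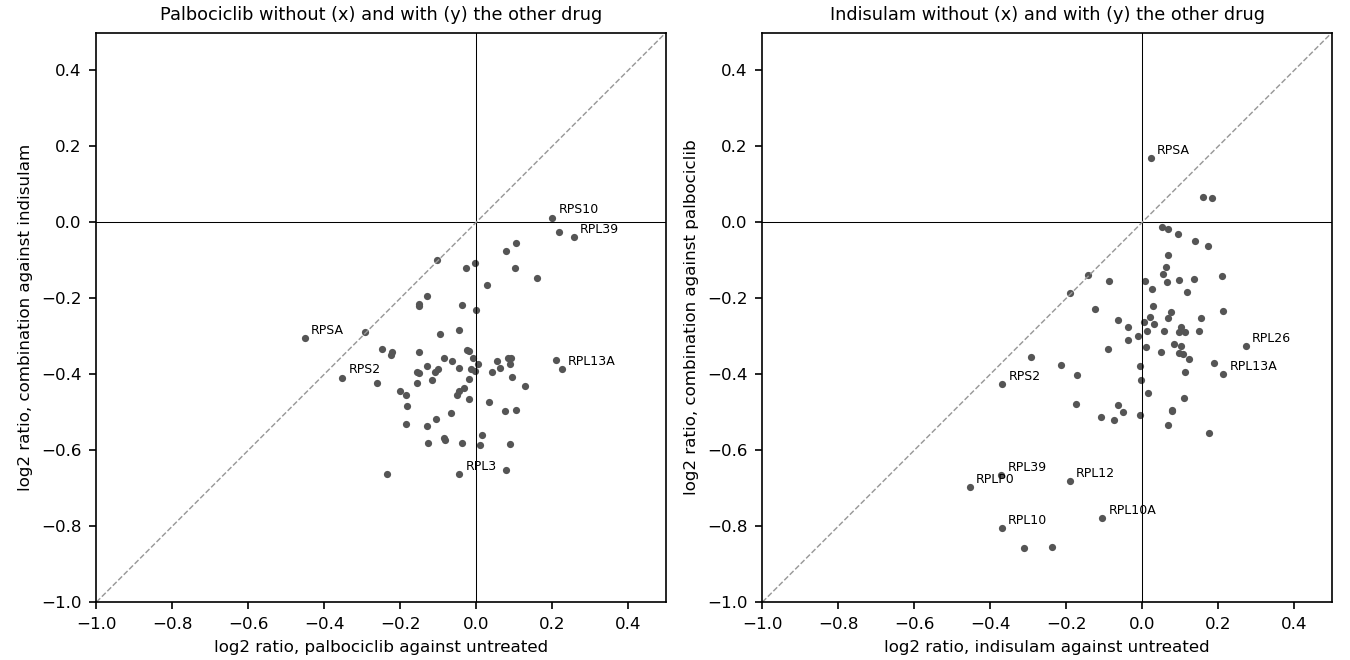
Log2 ratio of each core member for palbociclib (left) and for indisulam (right), without the other drug on the x axis and with it on the y axis, with equality as a dashed line. In each panel 74 of the 77 points lie below the line, and RPSA lies above it.

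The departure from additivity, the combination ratio minus the sum of the single-drug ratios on the log2 scale, had a core median of -0.31 (SD 0.18, from -0.73 to 0.15), beside 0.01 over all genes tested and 0.04 over those at 100 CPM or more. Called negative were 37 core members where the background was 17.8% (19.3% at 100 CPM or more), and 0 were called positive where it was 17.7%. This value uses all 4 libraries, so a shift of 1 library moves every member. Of well-counted members, RPL10A had -0.67 (-0.74 to -0.61) and RPL3 -0.62 (-0.65 to -0.58). RPL13A, above untreated with either drug alone, had -0.61 (-0.65 to -0.58). RPL36A had the lowest value, -0.73 (-1.13 to -0.33), with the wide interval of a low count.

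For a few members the single-drug ratios added up to that of the combination. RPL38, of the large subunit, had a departure of 0.00 (-0.07 to 0.08) at 450, 419, 394 and 368 CPM. An opposite-strand gene covers 59.0% of the exonic bases of RPL38, and the strand setting of the counting is not given. RPS15 also had a departure of 0.00 (-0.09 to 0.10). RPS2 had -0.06 (-0.10 to -0.01). RPSA was at the top with 0.15 (0.09 to 0.20). Thus RPS2 and RPL3, both low with the combination, differed in how the single drugs related to it, by values of -0.06 and -0.62.

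Members were then grouped by their role in the ribosome. The large and the small subunit had the same median combination to untreated ratio, -0.36, with 25 of 46 and 18 of 31 called lower. For these and the groups that follow, the background was 28.2% lower among all genes tested and 28.9% at 100 CPM or more. Within the small subunit the head had -0.36 (8 of 14 lower) and the body -0.36 (10 of 17 lower). The 21 core genes mutated in Diamond-Blackfan anaemia, a failure of red cell production, had -0.31 with 10 lower. Core genes with a small nucleolar RNA inside them had -0.39 (18 of 28 lower) and those without one -0.33 (25 of 49 lower). The ranges of all these groups overlap, and no group was tested against another.

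The stalk had the lowest group median, -0.60 over 4 genes, and it was uneven. RPLP0 and RPL12, which form its base, were past 1.5-fold lower. RPLP2, 1 of the 2 arms, was at 655, 577, 665 and 485 CPM with -0.43 (-0.48 to -0.39), and RPLP1, the other arm, was at 1162, 1186, 1111 and 991 CPM with -0.23 (-0.26 to -0.20). The arms are present in more copies per ribosome than the base.

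RPL5 and RPL11, which bind the 5S ribosomal RNA and can restrain the p53 ligase MDM2, had like values. RPL5 was at 1140, 1126, 1195 and 946 CPM, with a combination ratio of -0.27 (-0.30 to -0.24). RPL11 was at 1106, 997, 1150 and 907 CPM, with -0.29 (-0.32 to -0.25). Neither was called against untreated, and both were called lower in the combination against indisulam, at -0.34 (-0.37 to -0.31) each.

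Of the exit tunnel, RPL4 was at 1926, 1760, 2061 and 1585 CPM with -0.28 (-0.31 to -0.26), and RPL39 had -0.41 (-0.44 to -0.38). At the tunnel rim RPL19 was lowest with -0.51 (-0.53 to -0.48), at 1790, 1611, 1462 and 1260 CPM. RPL23A, a contact of the signal recognition particle, had -0.40 (-0.45 to -0.36), RPL31 had -0.39 (-0.44 to -0.34) and RPL26 had -0.31 (-0.38 to -0.25). RPL35 had -0.14 (-0.19 to -0.09) and, with RPL22, was nearest to untreated at the rim. There 3 of 6 genes were called lower, beside 28.2% of all genes tested.

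RPS6, the target of S6 kinase, was at 1413, 1324, 1438 and 1173 CPM with -0.27 (-0.30 to -0.24). RPS27A, made as a fusion with ubiquitin, was at 831, 806, 899 and 660 CPM with -0.33 (-0.37 to -0.29). RPL13 served the study as a reference transcript in quantitative PCR. In its main figures that PCR covered indisulam alone, RBM39 knockdown and CDK2 overexpression, and not the combination. RPL13 was at 785 CPM untreated, 804 with palbociclib, 850 with indisulam and 612 with the combination. Its indisulam ratio was 0.11 (0.08 to 0.15), and its combination ratio was -0.36 (-0.40 to -0.32), at the core median. Against palbociclib and against indisulam the combination ratios of RPL13 were -0.39 (-0.43 to -0.35) and -0.47 (-0.51 to -0.43).

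The paralogs had ratios on both sides of 0. Of the 6 that passed the filter, 1 was called higher and 1 lower in the combination against untreated. The backgrounds were 33.1% higher and 28.2% lower, and 6 genes are too few to be set apart from them. The range of the paralog ratios was -0.83 to 0.84. RPL22L1, the paralog of RPL22, was at 60.4, 77.3, 47.7 and 33.9 CPM. It was highest with palbociclib alone, 0.36 (0.22 to 0.49), and lowest with the combination, -0.83 (-0.99 to -0.67). Of the reads of RPL22 and RPL22L1 together, RPL22L1 took 12.7% untreated (exact binomial 95% interval 11.9 to 13.6), 14.8% with palbociclib (14.0 to 15.7), 9.92% with indisulam (9.28 to 10.6) and 7.84% with the combination (7.18 to 8.53). The shares were lower in both libraries with indisulam, and none of the 4 intervals overlap.

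RPS27L, the paralog of RPS27 and a known p53 target, went the other way. It was at 84.6, 77.9, 111 and 86.6 CPM, with an indisulam ratio of 0.39 (0.28 to 0.50). Its share of the reads of the pair was 15.2% (14.4 to 16.1), 13.3% (12.6 to 14.1), 18.4% (17.6 to 19.1) and 19.8% (18.9 to 20.9), higher in the 2 libraries with indisulam. In the combination RPS27L itself had a ratio to untreated of 0.03 (-0.08 to 0.15), while RPS27 was at 470, 506, 493 and 350 CPM.

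RPL39L, a paralog known from testis and some tumours, had 22, 27, 87 and 46 reads. Its indisulam ratio was 1.53 (0.88 to 2.19) and its combination ratio 0.84 (0.14 to 1.55), and its share of the reads of RPL39 and RPL39L stayed at or below 0.593% (0.475 to 0.731). RPL26L1 was at 16.8, 13.2, 20.1 and 19.7 CPM and was called higher in the combination against palbociclib, at 0.57 (0.30 to 0.85). With palbociclib alone it was called lower than untreated, at -0.34 (-0.63 to -0.05). Its combination ratio to untreated was 0.23 (-0.03 to 0.49) and was not called. RPL7L1, a relative of RPL7 with a role in large-subunit assembly, was at 158.7, 183, 174 and 173 CPM and was not called in any comparison.

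RPL36AL encodes a protein nearly identical to RPL36A, so reads of the pair may be split or set aside. It was at 95.7, 87.4, 90.7 and 84.4 CPM and took 84.1% to 88.6% of the reads of the pair. RPL10L, a testis paralog without introns, had 11, 7, 9 and 8 reads. RPL3L, the striated-muscle paralog of RPL3, had 2 reads in the untreated library and 0 in the other 3, where 3 reads would have been 0.180 to 0.236 CPM. RPL10L and RPL3L were the 2 members that did not pass the filter.

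**Figure D5:**
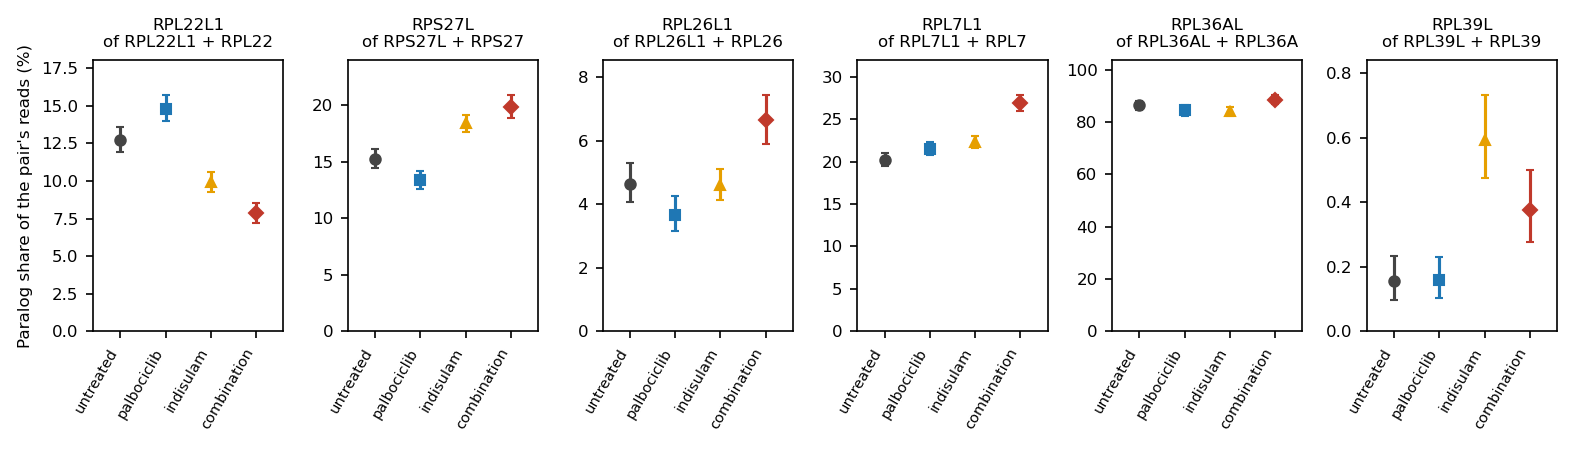
Share of the reads of each paralog and its core gene that fell on the paralog, in percent, in the 4 libraries, with exact binomial 95% intervals. The share of RPL22L1 falls from 14.8% with palbociclib to 7.84% with the combination, and that of RPS27L is highest, at 19.8%, with the combination.

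Other genes of the pathway, listed apart from the rule, gave a mixed picture. FAU, which encodes a small-subunit protein fused to a ubiquitin-like sequence, had a combination ratio of -0.19 and was not called, and RACK1, a scaffold on the small subunit, had -0.37 and was called lower. Of 16 tested translation factors and other TOP messages, 5 were called lower, a share near the 28.2% of all genes tested, and 1, EIF3A, was called higher, with a median of -0.18. EEF2, which moves the ribosome along the message, was at 5136, 5614, 4367 and 3438 CPM with a ratio of -0.58, EEF1A1 had -0.10 and TPT1 had -0.03.

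Mitochondrial ribosomal proteins, encoded in the nucleus for a separate ribosome, were read beside the cytosolic core. Of the 77 tested, 33 were called lower and 2 higher with palbociclib against untreated, beside 2 and 0 of the 77 cytosolic core members, and their median was -0.22 against -0.04. The backgrounds there were 22.4% lower and 21.3% higher. In the combination against untreated 25 were lower and 9 higher, with a median of -0.15, and the lower share was near the background of 28.2%. Their departure from additivity had a median of 0.19, with 20 positive and 3 negative calls beside backgrounds of 17.7% and 17.8%, where the cytosolic core had a median of -0.31. The 2 lists were set side by side and not tested against each other.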

How the data were processed

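Strand-specific poly(A) libraries were made by the authors. The deposited tables hold raw read counts for Ensembl genes on GRCh38; the submitters' processing notes name TopHat2 2.1 and HTSeq without their settings. Reads at several places or in several genes were tallied apart by the authors (6.46% to 6.84% and 2.41% to 2.63% of listed reads) and were not used, so genes with near-identical copies are undercounted. Annotation release, strand setting and any pooling of duplicates are not given in the sources used here. Counts were scaled by library total, with gene positions from GENCODE release 44. Ratios, Poisson intervals and the 1.25-fold rule are defined in the report and were run on simulated data. Apart from set fold changes, the simulated libraries varied by counting error alone. That run therefore does not show how the rule behaves with spread between replicates. Alternative scalings used edgeR 4.0.16 and DESeq2 1.42.0 factors, with pandas 2.3.3 and R 4.3.3. A fit without an interaction would leave 1 residual degree of freedom and assumes that the drugs add, so no model was fitted. Named genes were the extreme members of each ratio, the highest and lowest levels, fixed role groups and every paralog, and members and lists were chosen with earlier results of these data known. A few genes are not reported here.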

Additional observations from a re-analysis of the deposited data

Results flagged for a closer look

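RPL22L1 moved in opposite directions with palbociclib according to the presence of indisulam. Its log2 ratio for palbociclib was 0.356 without the other drug and -0.491 on top of indisulam, and the difference was not tested for lack of replicates.

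Pseudogenes named after members were outside the comparisons and held 0.417% to 0.454% of the reads of core members and pseudogenes together. RPL29P19 was at 2.71, 1.58, 9.51 and 10.4 CPM in the untreated, palbociclib, indisulam and combination libraries, a log2 ratio to untreated of 1.79 with indisulam and 1.91 with the combination. RPLP0P2 had 108, 156, 143 and 424 reads, a ratio of 1.77 with the combination, where RPLP0 itself was lower. Only pseudogenes above untreated were flagged, so lower ones could not appear. Pseudogenes together were at 285 CPM untreated and 231 with the combination. RPS2P5, with the highest mean level of them, went from 107.6 to 46.1 CPM, a ratio of -1.22 (-1.36 to -1.09). RPLP0P6, another copy of RPLP0, had 21 and 7 reads, a ratio of -1.64 (-2.75 to -0.54). Reads from a gene and its pseudogene copy can be hard to tell apart, and the part of this in the values was not tested.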

How the results depend on the processing

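Other scalings moved the medians of core members by up to 0.10 on the log2 scale. The indisulam against untreated median turned from 0.05 to -0.022 with TMM factors, -0.015 with DESeq2 size factors and -0.020 with upper-quartile factors. The combination against untreated median became -0.45 with TMM and -0.44 with DESeq2, and the combination against palbociclib median became -0.40, -0.38 and, with upper quartile, -0.35. With TMM, 55 core members were called lower in the latter, in place of 36. For the combination against untreated the calls went from 43 to 64 with TMM and 61 with DESeq2. These were above the 58 and 57 against indisulam, so that the order of the comparisons by calls turned. The share of all genes called was not counted under the other scalings, so these counts have no background. TMM also moved the median of all genes tested from 0.05 to -0.04 in the combination against untreated. At 1.5-fold the counts were 0 with palbociclib, 0 with indisulam, 7 with the combination, 7 for the combination against palbociclib and 4 against indisulam. At 2-fold all were 0. Of all genes tested, 10.3% to 19.5% were called lower at 1.5-fold and 3.19% to 10.6% at 2-fold. Without mitochondrially encoded genes the core shares were 7.03%, 6.94%, 6.85% and 5.42% in the untreated, palbociclib, indisulam and combination libraries, and with pseudogenes added 6.64%, 6.46%, 6.54% and 5.09%. Leaving out the 5 core members with over 40% same-strand overlap was an alternative chosen after the data were seen. It gave 2, 4, 41, 34 and 54 calls in the 5 comparisons, all lower. The lower shares of all genes tested were 22.4%, 22.5%, 28.2%, 22.5% and 21% in the same order. No replicate could be left out with 1 library per condition. No paired analysis was possible because each condition has a single library. The cause of these shifts was not tested.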
